A study of Mus musculus with 16 samples.

Results

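The genes described here are 30 mouse genes of the last steps of protein digestion: peptidases of the enterocyte brush border and cytosol, and carriers that move peptides and amino acids across the intestinal epithelium. They were taken by name from a fixed list of symbols, and 29 of the 30 were found by symbol among the 55359 genes of the deposited count table. The exception was Cpo, for carboxypeptidase O, to which no identifier matched. The RefSeq gene table lists a mouse pseudogene locus, Gm13754, with the synonym Cpop, and Gm13754 had 0 counts in all 16 libraries.

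Dietary protein is cut to peptides by pancreatic enzymes in the gut lumen, which enteropeptidase on the duodenal surface sets going by activating trypsinogen. Peptidases anchored in the microvilli trim these peptides to short peptides and free amino acids, which apical carriers take up with sodium ions or protons. Cytosolic dipeptidases finish the digestion, and basolateral carriers, several of them pairs of a heavy and a light chain, release amino acids towards the blood. In rodents, digestion and uptake are spread unevenly along the small intestine.

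Total RNA of duodenum and ileum came from 8 adult C57BL/6N male mice on a standard diet, 18 weeks after tamoxifen. The mutants, 4 mice named NFVCT27, NFVCT38, NFVCT153 and NFVCT190, were Neurog3f/f; Villin-CreERT2, in which a tamoxifen-activated recombinase under the Villin promoter, active in the intestinal epithelium, deletes Neurog3. The controls, 4 mice named NF17, NF29, NF32 and NF152, were Neurog3f/f and so shared the floxed alleles without carrying the recombinase. What the transgene does by itself and what Neurog3 loss does cannot be told apart, and the labels do not say separately whether controls were given tamoxifen. Each animal gave 1 library of each tissue, which makes 4 libraries in each of the 4 groups: mutant duodenum, control duodenum, mutant ileum and control ileum. Neurog3 is the transcription factor that starts the enteroendocrine, hormone-releasing fate, so the design asks what else differs in a gut without these cells.

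Libraries held 8213889 to 35076714 counts. Neurog3 had 0 counts in all 8 mutant libraries, against 8 to 27 counts in control ileum and 12 to 37 in control duodenum. The tissue labels fitted their markers: all 5 genes of a distal list, Fabp6 and Slc10a2 among them, were higher in ileum than in duodenum in both genotypes. Pancreatic acinar genes took 1.748% to 18.24% of the counts of mutant duodenum libraries and 6.399% to 14.33% of control duodenum libraries, against less than 1% in every ileal library. Levels are given as CPM, read counts relative to library size, scaled with TMM factors over all 16 libraries. In such bulk tissue, fewer cells of a type and less RNA per cell cannot be told apart.

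Upstream sequence is shown for 3 members that stand for patterns described below: Tmprss15, the most duodenal of the genes, Mep1a, among the most ileal ones, and Slc3a1, a carrier subunit of intermediate slope. Each line holds the 250 bases before the gene's start, from RefSeq on GRCm38.p6, read along the gene's own strand. These are chr16:79091098-79091347 on the minus strand, chr17:43502774-43503023 on the minus strand and chr17:85028097-85028346 on the plus strand, and capitals mark matches to the motifs listed after them.
Tmprss15: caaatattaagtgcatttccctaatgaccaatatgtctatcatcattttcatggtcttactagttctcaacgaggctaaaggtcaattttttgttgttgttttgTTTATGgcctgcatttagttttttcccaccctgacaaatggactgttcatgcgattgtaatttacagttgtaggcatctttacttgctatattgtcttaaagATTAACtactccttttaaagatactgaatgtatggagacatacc
Mep1a: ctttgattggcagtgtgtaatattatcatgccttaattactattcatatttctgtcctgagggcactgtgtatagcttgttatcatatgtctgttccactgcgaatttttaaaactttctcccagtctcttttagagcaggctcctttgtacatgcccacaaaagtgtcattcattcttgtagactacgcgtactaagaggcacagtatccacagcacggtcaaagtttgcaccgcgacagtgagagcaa
Slc3a1: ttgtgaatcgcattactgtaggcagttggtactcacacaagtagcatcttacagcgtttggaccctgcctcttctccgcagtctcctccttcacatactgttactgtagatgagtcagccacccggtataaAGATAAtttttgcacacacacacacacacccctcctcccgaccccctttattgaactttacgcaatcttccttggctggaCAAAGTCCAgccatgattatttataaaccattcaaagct

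The motifs, searched on both strands, were HNF4 (CAAAGTCCA), the HNF1 core (GTTAAT), the HNF1 palindrome made of that core and its reverse complement around 1 free base, the site of GATA factors with the letters AGATAA, CDX (TTTATG) and ATF4 (TGATGNAA). These factors, apart from ATF4, a regulator of the response to amino acid shortage, are known regulators of enterocyte genes. The table held 32 windows for 23 of the members. The Tmprss15 window held the CDX letters, found in 10.8% of all 32851 windows and in 1 of the 32 member windows, and an HNF1 core on the opposite strand (6.43% of all windows, 5 of the member windows). The full palindrome was in 0 member windows and in 0.00913% of all. The Slc3a1 window held a GATA match (9.99% of all windows, 6 of the member windows) and the HNF4 letters, present in 0.384% of all windows and in 1 member window. The Mep1a window held none of the motifs. ATF4 letters were in 2 member windows, both of Slc7a7, and in 3.45% of all windows. A match is only a run of letters, and binding was not measured. The bases just after the start were found near the opening of an annotated transcript for Tmprss15 and Mep1a. For Slc3a1 they were not, so its window and matches rest on the RefSeq start alone.

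In both genotypes most of the genes differed between ileum and duodenum, and the called brush border peptidases lay mostly on the ileal side (7 higher and 2 lower of 10 in mutants, 8 and 2 of 10 in controls). Of the 29 genes, 11 were higher and 6 lower in mutant ileum than in mutant duodenum (edgeR quasi-likelihood test, adjusted p under 0.05), beside 32.3% of all 14950 genes called in either direction, 15.2% higher and 17.1% lower. In controls 16 were higher and 6 lower in ileum, beside 35.9% of all 14976 genes, 17.1% higher and 18.7% lower. The same direction was called in both genotypes for 11 higher and 5 lower genes, a count for which no share over all genes was taken. These counts include Slc6a14, which passed the filter on low counts through its ileal libraries alone; without it, 10 were higher in mutants, 15 in controls and 10 in both. The median log2 fold change of the 29, ileum over duodenum, was 0.36 in mutants and 0.54 in controls, against -0.02 and 0.01 over all genes tested, and without Slc6a14 it was 0.34 in mutants and 0.46 in controls. The animal as a block changed 3 calls in controls, those of Slc15a1 and Ace, which were no longer called (adjusted p = 0.0771 and 0.0669), and of Slc36a1, which was called lower (adjusted p = 0.0462), beside 39.4% of all genes called with the block. In the same comparison 8 of 9 smooth muscle genes were higher in mutant ileum and 9 of 9 in control ileum, and all 12 acinar genes were lower in the ileum of both genotypes. Their part in the tissue differences was not tested.

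**Figure D1:**
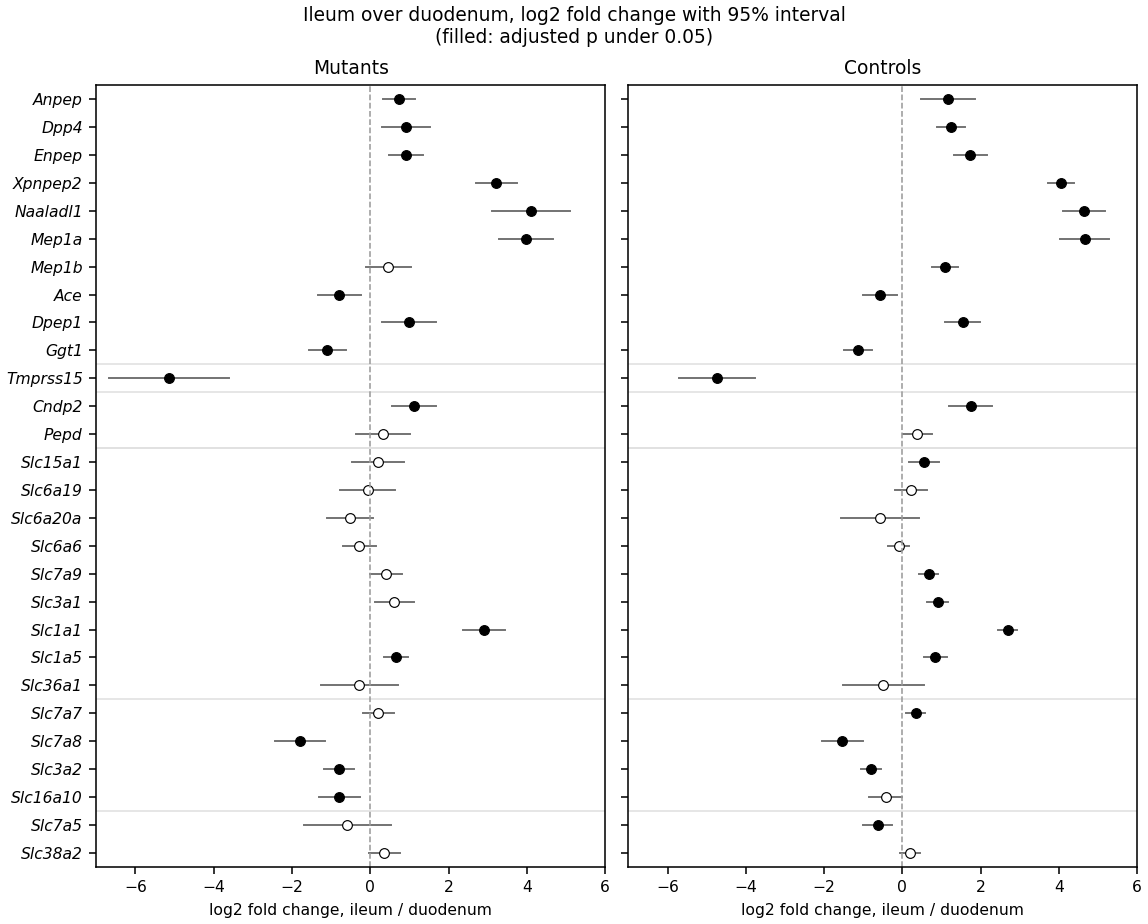
Log2 fold change of each gene, ileum over duodenum, on the horizontal axis, with its 95% interval, in mutants (left) and controls (right); filled points passed an adjusted p under 0.05, n = 4 libraries per group, and Slc6a14 is left out for its near absence from duodenum. Mep1a, Naaladl1 and Xpnpep2 stand above 3 in both panels, Slc1a1 near 3, and Tmprss15 alone lies near -5.

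Tmprss15, for enteropeptidase, marked the duodenum. It had 12.9, 9.37, 4.05 and 2.63 CPM in mutant ileum against 413, 234, 215 and 122 CPM in mutant duodenum (log2 fold change -5.14, SE 0.65, adjusted p = 0.00124). In controls it had 34.3, 15.99, 23.2 and 16.5 CPM in ileum against 453, 979, 380 and 604 CPM in duodenum (-4.73, SE 0.42, adjusted p = 0.000106). No ileal library of either genotype came near a duodenal one.

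Apart from the carrier Slc6a14, the steepest ileal genes were 3 peptidases. Naaladl1, an ileal peptidase of the family of glutamate carboxypeptidase II, had 1126, 1224, 1222 and 1248 CPM in mutant ileum, against 77.9, 45.4, 125 and 26.9 CPM in mutant duodenum, a fitted ratio of 17.2. It had 2233, 1562, 1760 and 1826 CPM in control ileum, against 72.6, 110, 54.0 and 58.2 CPM in control duodenum, a ratio of 25.1. Every ileal library thus stood far above every duodenal one. Mep1a, the alpha subunit of the metalloprotease meprin, was 15.7-fold higher in mutant ileum and 25.2-fold higher in control ileum than in the duodenum of the same genotype. Xpnpep2, membrane aminopeptidase P, which removes the residue in front of a proline, was 9.34-fold higher in mutant ileum and 16.5-fold in control ileum. All 3 passed the test in both genotypes, with no overlap of libraries.

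The other peptidases had smaller slopes. Enpep (aminopeptidase A, which takes acidic residues) was 1.87-fold higher in ileum than in duodenum of mutants and 3.33-fold in controls. Dpep1 (membrane dipeptidase) was 1.996-fold higher in mutants and 2.91-fold in controls, Dpp4 (which cuts behind proline or alanine near the amino end) 1.89-fold and 2.36-fold, and Anpep (aminopeptidase N, for neutral residues) 1.66-fold and 2.23-fold. In mutants the call of Dpep1 was lost in 5 of 8 fits with a library removed (adjusted p up to 0.0853) and without the filter on low counts (0.154), and that of Dpp4 in 4 of 8 and without the filter (up to 0.0776). Mep1b, the beta subunit of meprin, was 2.14-fold higher in controls and called there. In mutants it was not called (0.46 on the log2 scale, SE 0.27, adjusted p = 0.206). The mutant libraries of the 2 tissues only just did not overlap (lowest ileal 1122 CPM, highest duodenal 1117 CPM). Ace (angiotensin-converting enzyme, which removes carboxy-terminal dipeptides) and Ggt1 (gamma-glutamyltransferase, which splits glutathione) ran the other way: Ggt1 in ileum stood at 46.8% of its duodenal level in mutants and 45.3% in controls. The call of Ace in controls (log2 fold change -0.57, adjusted p = 0.0399) was lost when any of 6 of the 8 libraries was left out, with adjusted p up to 0.108, and that in mutants when any of 5 of 8 was (up to 0.1). Cytosolic Cndp2, a dipeptidase of broad specificity, was 2.17-fold higher in mutant ileum and 3.35-fold in control ileum. Pepd, prolidase, did not pass the test in either genotype.

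Among apical carriers the strongest contrast was Slc6a14, for a sodium- and chloride-driven carrier of neutral and cationic amino acids. It had 411, 204, 584 and 847 CPM in mutant ileum against 2 counts in all of mutant duodenum, both in NFVCT38. Control ileum had 131, 348, 284 and 299 CPM and control duodenum 0 counts in all 4 libraries. Against a floor of 3 counts over the group, control ileum was 4195-fold higher (at least 3720-fold with any 1 ileal library left out). The exact 95% lower limit of this ratio, for counting error only, was 3411. In mutants the ratio of ileum to duodenum was 19380, with an exact 95% interval of 5366 to 160100 that covers counting error only.

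Slc1a1, the glutamate and aspartate carrier, had 242, 236, 289 and 191 CPM in mutant ileum against 17.6, 32.8, 42.0 and 33.2 CPM in mutant duodenum (log2 fold change 2.90, SE 0.25, adjusted p = 2.14e-05). In controls it had 180, 207, 199 and 208 CPM in ileum against 29.9, 30.1, 35.3 and 27.8 CPM in duodenum (2.69, SE 0.11, adjusted p = 2.60e-09). Slc1a5, a neutral carrier that takes glutamine, was also higher in the ileum of both genotypes, 1.59-fold in mutants and 1.79-fold in controls. Both chains of the cystine and dibasic amino acid carrier, the heavy chain Slc3a1 and the light chain Slc7a9, were not called in mutants (1.53-fold, adjusted p = 0.0619, and 1.31-fold, adjusted p = 0.131) and were called in controls (1.86-fold and 1.59-fold). The difference between these slopes was itself not called. Slc15a1, the proton-driven carrier of short peptides, showed a shallow slope in controls (log2 fold change 0.54, SE 0.18, adjusted p = 0.0305) that was lost when any of 6 of 8 libraries was left out. Slc6a19, the main sodium-driven carrier of neutral amino acids, was called in neither genotype: the 95% interval of its log2 fold change ran from -0.77 to 0.64 in mutants and from -0.20 to 0.64 in controls. Slc6a20a (proline and other imino acids), Slc6a6 (taurine) and Slc36a1 (proton-driven, for small amino acids) were called in neither genotype.

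Of the 4 basolateral carriers, 3 were called lower in mutant ileum, beside 17.1% of all genes. In control ileum 2 were called lower and 1 higher, beside 18.7% and 17.1% of all genes. Slc7a8, the light chain of a neutral amino acid exchanger, stood in ileum at 28.8% of its duodenal level in mutants and 34.5% in controls. Its heavy chain Slc3a2 stood at 57.2% in mutants and 57.1% in controls. Slc7a7, the light chain that exports cationic amino acids with the same heavy chain, was 1.26-fold higher in control ileum (adjusted p = 0.0401), a call lost when any of 6 of 8 libraries was left out. Slc16a10, the carrier of aromatic amino acids, was called lower in mutant ileum (log2 fold change -0.79, SE 0.23, adjusted p = 0.0256) and not in control ileum (-0.43, SE 0.19, adjusted p = 0.101). The mutant call was lost in 4 of 8 fits with a library removed and without the filter on low counts (adjusted p up to 0.0787). Slc7a5, a light chain for large neutral amino acids that is high in growing cells, stood in mutant ileum at 66.6% of mutant duodenum (adjusted p = 0.392) and was called lower in control ileum, at 64.4% of control duodenum. Slc38a2, a sodium-driven neutral carrier that cells raise when short of amino acids, was not called in either genotype.

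Levels of different genes were compared as CPM per kilobase of exon (mean ± SD, n = 4). In mutant ileum the highest were Anpep (570 ± 106), Naaladl1 (484 ± 21.6), Mep1b (475 ± 42.0) and Enpep (372 ± 72.3). In control ileum the same 4 genes led in the same order, with 980 ± 158 for Anpep, 741 ± 113 for Naaladl1, 705 ± 76.3 for Mep1b and 538 ± 33.7 for Enpep. In both groups Naaladl1 and Mep1b lay within their spreads of each other. In mutant duodenum Mep1b (340 ± 125) and Anpep (337 ± 42.3) could not be ordered, and Enpep (195 ± 35.9) and Ggt1 (195 ± 61.9) followed. In control duodenum the order was Anpep (440 ± 188), Mep1b (331 ± 38.3), Ggt1 (238 ± 50.6), Enpep (162 ± 43.6) and Tmprss15 (144 ± 63.8), and each neighbouring pair but Ggt1 and Mep1b overlapped in spread. Among carriers of control ileum Slc3a1, Slc6a19 and Slc15a1 ranked highest, with 216 ± 14.9, 146 ± 7.86 and 117 ± 26.0 CPM per kb.

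In mutant ileum 5 of the 10 brush border peptidases fell and no carrier was called. All 10 peptidases of the brush border had negative log2 fold changes, mutant over control, with a median of -0.55, and those that passed the test were Anpep, Naaladl1, Mep1b, Enpep and Xpnpep2. These were the only calls among the 29 genes tested, 5 lower and 0 higher, beside 3.28% of all 14951 genes called in either direction and 1.51% called lower. Over the 29 genes, 22 values lay below 0 and 7 above, with a median of -0.25, against -0.01 over all genes. Together the 29 genes took 1.324% to 1.605% of the counts in mutant ileum, against 2.037% to 2.184% in control ileum, with no overlap (means 1.48% ± 0.127 and 2.12% ± 0.0626, SD, n = 4 each, two-sided exact permutation p = 0.0286, the smallest that 70 splits allow). That sum holds the 5 called genes, and the members were chosen with earlier results known, so its p is no separate support. The mean log2(CPM + 1) of the 29 genes, in which abundant genes weigh no more than others, was 7.93 ± 0.0682 in mutant ileum. It was 8.12 ± 0.112 in control ileum, with overlap (exact permutation p = 0.0857).

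**Figure D2:**
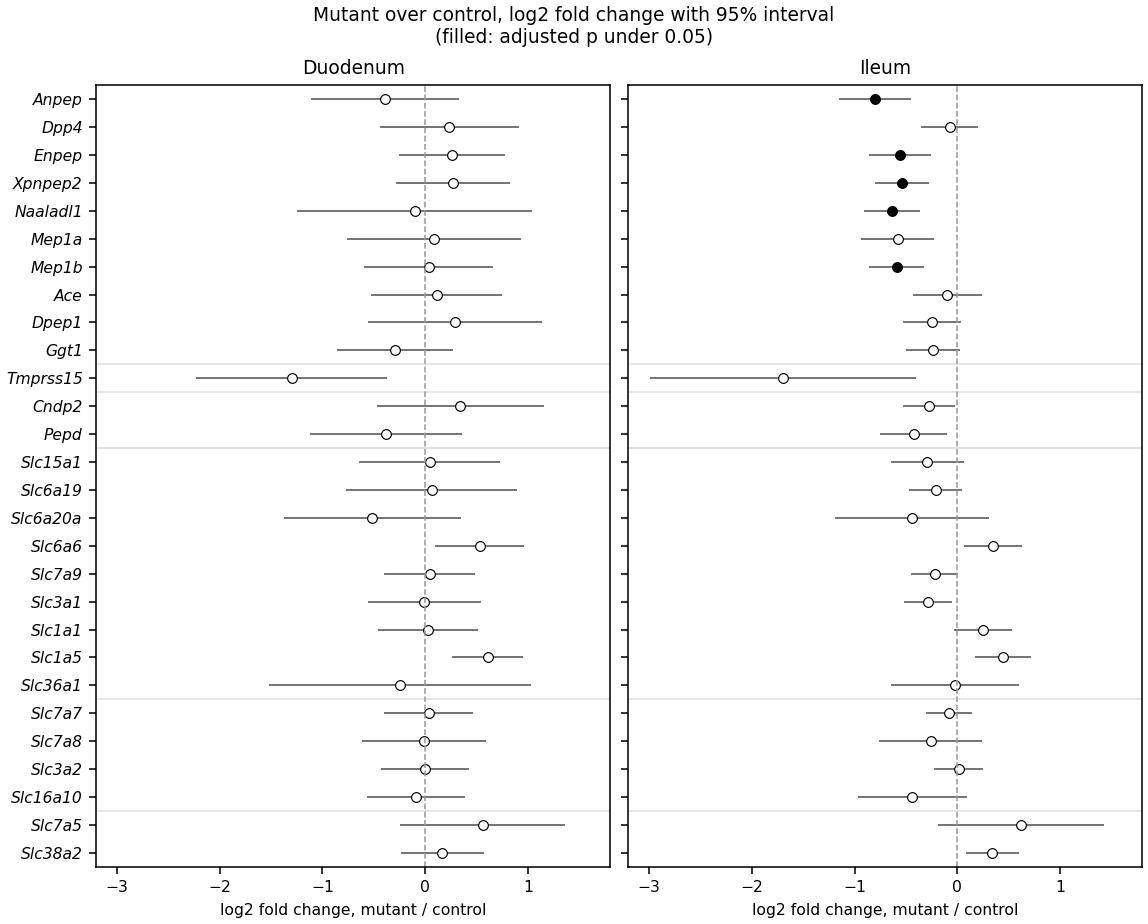
Log2 fold change of each gene, mutant over control, on the horizontal axis, with its 95% interval, in duodenum (left) and ileum (right); filled points passed an adjusted p under 0.05, n = 4 libraries per group, and Slc6a14 is left out. The 5 filled points are all ileal peptidases below 0, while no duodenal point is filled.

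Anpep had 2026, 2109, 2993 and 2295 CPM in mutant ileum, against 4089, 4778, 4152 and 3193 CPM in control ileum (57.3% of the control level, log2 fold change -0.80, SE 0.16, adjusted p = 0.0133). Naaladl1 had 1126, 1224, 1222 and 1248 CPM in mutant ileum, against 2233, 1562, 1760 and 1826 CPM in control ileum (64.4%, -0.63, SE 0.12, adjusted p = 0.0107). Mep1b had 1122, 1386, 1214 and 1269 CPM in mutant ileum, against 1744, 2127, 1670 and 1863 CPM in control ileum (66.4%, -0.59, SE 0.12, adjusted p = 0.0137). In each of the 3 the highest mutant library lay below the lowest control library, and Naaladl1 was nearly the same in the 4 mutants. Enpep had 1478, 1756, 1540 and 2229 CPM in mutant ileum, against 2674, 2312, 2532 and 2614 CPM in control ileum (68.1%, -0.55, SE 0.14, adjusted p = 0.0394). Xpnpep2 had 222, 268, 268 and 298 CPM in mutant ileum, against 441, 329, 360 and 383 CPM in control ileum (68.8%, -0.54, SE 0.12, adjusted p = 0.0231). Here too the groups did not overlap, with Enpep of mutant NFVCT190 closest to the controls.

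**Figure D3:**
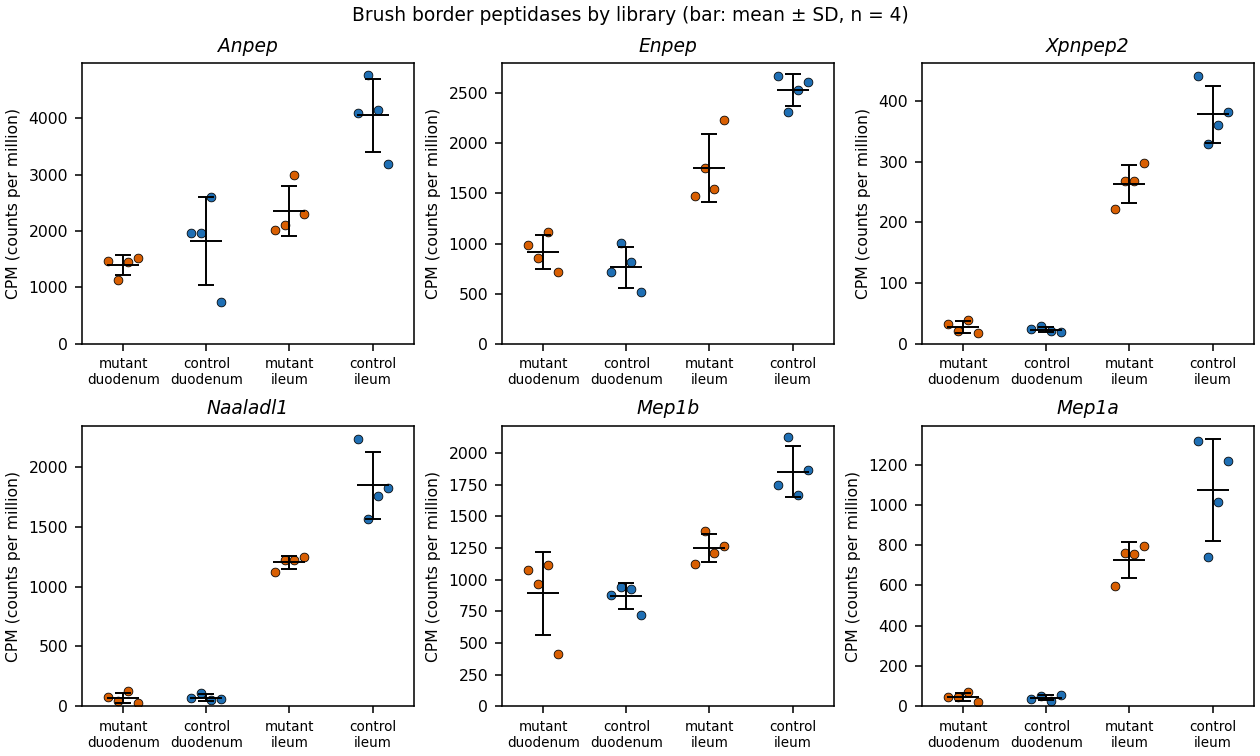
CPM per library (vertical axis, linear) of 6 brush border peptidases in the 4 groups; each point is 1 animal, and bars give the mean ± SD, n = 4. In ileum the mutant points of Anpep, Enpep, Xpnpep2, Naaladl1 and Mep1b lie below all control points, and those of Mep1a overlap them through control NF29.

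The calls of Mep1b and Naaladl1 held whichever single library was left out, while that of Anpep was lost without mutant NFVCT38 (adjusted p = 0.055), that of Xpnpep2 in 4 of the 8 fits with a library removed (up to 0.0787) and that of Enpep in 6 of them (up to 0.12). In 1 fit over all 16 libraries none of the 5 was called, with log2 fold changes of -0.52 to -0.78 and adjusted p of 0.148 to 0.459, beside 2.41% of all genes called. Without the filter on low counts 9 of the 29 were called, beside 3.72% of all genes; the additional ones were Mep1a, Pepd, Slc16a10 and Slc1a5. DESeq2 called 8, beside 5.03%, adding Mep1a, Tmprss15 and Slc1a5.

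Other groups moved with these values. The mean log2(CPM + 1) of 9 smooth muscle genes was 8.87 ± 0.194 in mutant ileum and 8.19 ± 0.212 in control ileum (SD, n = 4 each, two-sided exact permutation p = 0.0286), with 6 of the 9 genes called higher and none at 0 counts. Their summed share was 0.531% to 0.757% of counts in mutant ileum against 0.373% to 0.494% in control ileum. With that score as a covariate none of the 29 genes was called, beside 0.14% of all genes, and the log2 fold changes of the 5 were -1.31 (Anpep), -0.90 (Naaladl1), -0.71 (Xpnpep2), -0.46 (Mep1b) and -0.39 (Enpep), with adjusted p of 0.137 to 0.668. The scores of the 2 genotypes did not overlap, so genotype and smooth muscle content cannot be told apart in that fit. Scaled to 8 epithelial genes instead, Anpep and Naaladl1 were still called, beside 2.13% of all genes, and Mep1b, Enpep and Xpnpep2 had log2 fold changes of -0.58, -0.54 and -0.52 with adjusted p of 0.0821 to 0.165. The epithelial list itself had 1 of 8 genes called higher in mutant ileum (Krt18, a keratin, log2 fold change 0.57) and a median of -0.02. Of 10 enterocyte genes 0 were called in ileum (2 by DESeq2), with 2 values above 0, 8 below and a median of -0.12. Their summed share was 1.264% to 1.408% of counts in mutant ileum and 1.33% to 1.716% in control ileum, with overlap (exact permutation p = 0.0571).

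The 5 distal identity genes took 0.206% to 0.321% of the counts in mutant ileum against 0.391% to 0.628% in control ileum, and their mean log2(CPM + 1) was 7.47 ± 0.147 and 7.87 ± 0.108 (SD, n = 4 each, exact permutation p = 0.0286). Fabp6, the ileal bile acid binding protein, made up 15.83% to 42.12% of the summed CPM of the list in mutant ileum and 57.74% to 74.15% in control ileum, with 338 to 1310 CPM in mutant ileum against 1956 to 4137 CPM in control ileum (log2 fold change -1.95, SE 0.46, adjusted p = 0.0864). None of the 5 was called (2 had an unadjusted p under 0.05, and DESeq2 called 1), and Slc10a2, the ileal bile acid carrier, had a log2 fold change of -0.08. The median log2 fold change of the 5 was -0.08, with 4 values below 0 and 1 above. Fabp6 enters the mean log2(CPM + 1) as well, and that mean was not taken without it. Markers of T and NK cells had a lower mean log2(CPM + 1) in mutant ileum (2.29 ± 0.644 against 3.27 ± 0.11, exact permutation p = 0.0286). The summed share of these markers overlapped, at 0.0037% to 0.0160% in mutant ileum against 0.0133% to 0.0223% in control ileum (exact permutation p = 0.0571). In duodenum their mean was lower in mutants too (2.71 ± 0.358 against 3.85 ± 0.192, exact permutation p = 0.0286). The part of these differences in the peptidase values was not tested.

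**Figure D4:**
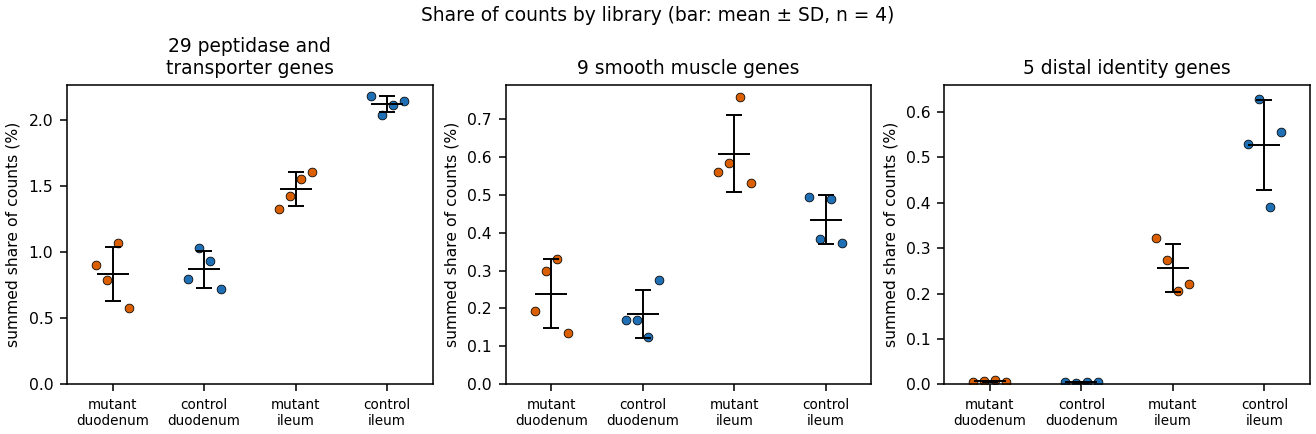
Summed share of counts (vertical axis, percent) of the 29 peptidase and carrier genes, 9 smooth muscle genes and 5 distal identity genes; each point is 1 library, and bars give the mean ± SD, n = 4. In ileum, mutants lie below controls for the 29 genes and the distal genes and above them for smooth muscle genes.

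The remaining 5 brush border peptidases did not pass the test. Mep1a had 597, 759, 757 and 797 CPM in mutant ileum against 1317, 743, 1016 and 1219 CPM in control ileum (log2 fold change -0.58, SE 0.16, adjusted p = 0.0671), and DESeq2 called it (adjusted p = 0.0186). Dpep1, Ggt1, Ace and Dpp4 had log2 fold changes of -0.25, -0.24, -0.10 and -0.07. For Dpp4 the 95% interval was -0.34 to 0.19, which leaves out the change seen for Anpep. Tmprss15 had 12.9, 9.37, 4.05 and 2.63 CPM in mutant ileum against 34.3, 15.99, 23.2 and 16.5 CPM in control ileum, and the libraries did not overlap (-1.70, SE 0.54, adjusted p = 0.182, called by DESeq2 at 0.0462). Cytosolic Pepd (-0.42, adjusted p = 0.151) and Cndp2 (-0.27, adjusted p = 0.252) were not called.

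None of the 10 apical carriers was called in mutant ileum, though 3 had an unadjusted p under 0.05 and DESeq2 called 1, Slc1a5. Over all genes, 2356 of 14951 had an unadjusted p under 0.05, and DESeq2 called 5.03%. Slc1a5 had 61.4, 59.3, 52.6 and 62.7 CPM in mutant ileum against 36.2, 52.7, 39.9 and 42.4 CPM in control ileum (log2 fold change 0.45, SE 0.12, adjusted p = 0.0668, DESeq2 adjusted p = 0.0249), the lowest mutant library lying just under the highest control. Slc6a6 (0.35, adjusted p = 0.173) and Slc3a1 (-0.28, adjusted p = 0.183) were the other 2. Slc15a1 and Slc6a19 stood at 81.8% and 86.4% of the control level, with 95% intervals of the log2 fold change of -0.63 to 0.05 and -0.46 to 0.04. Slc6a14 ranged from 204 to 847 CPM in mutant ileum and from 131 to 348 CPM in control ileum (0.92, SE 0.50, adjusted p = 0.464). Of the 6 basolateral and growth-linked carriers none was called by edgeR or DESeq2, and 1 had an unadjusted p under 0.05. This was Slc38a2, with 128, 159, 123 and 129 CPM in mutant ileum against 110, 94.0, 120 and 95.2 CPM in control ileum (0.34, SE 0.11, adjusted p = 0.136). Its groups did not overlap, as was true of 7 of the 29 genes in ileum (6 lower, 1 higher), beside 10.1% of all genes.

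**Figure D5:**
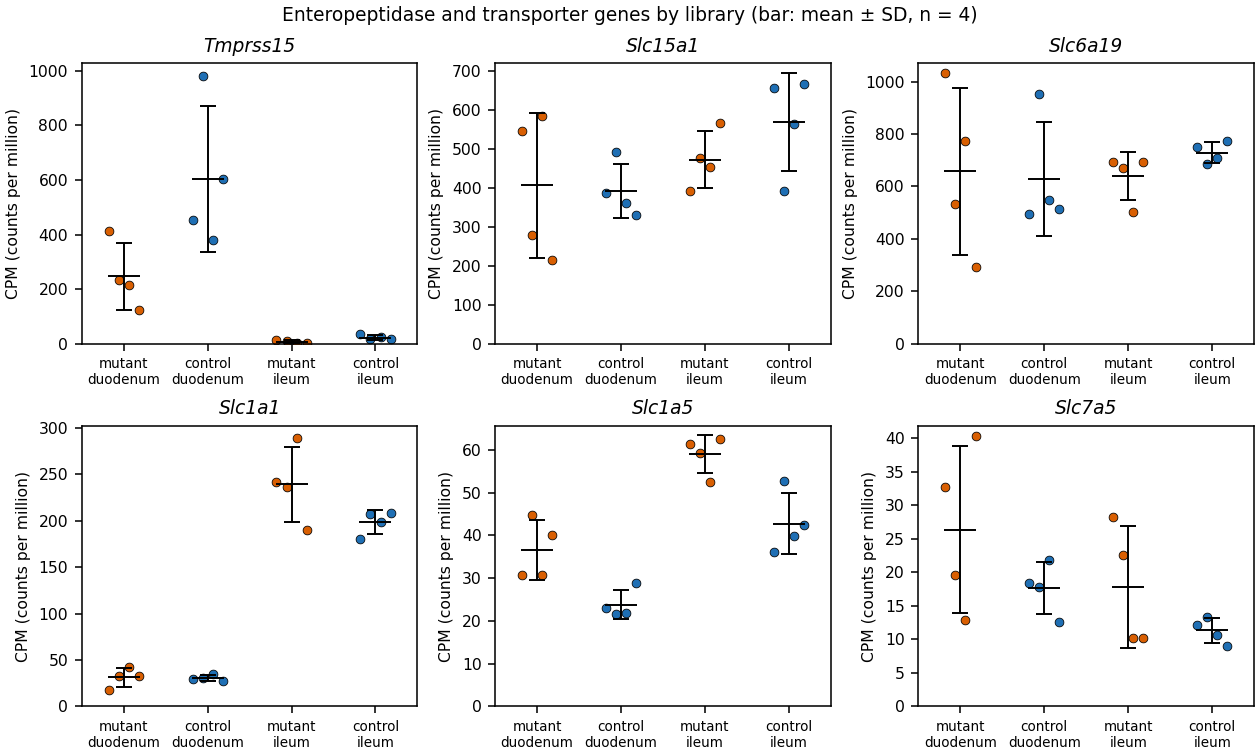
CPM per library (vertical axis, linear) of Tmprss15 and 5 carrier genes in the 4 groups; each point is 1 animal, and bars give the mean ± SD, n = 4. Tmprss15 has the lower mean in mutants in both tissues without passing the edgeR test, Slc1a1 separates by tissue, and Slc1a5 lies higher in mutant duodenum than in every control duodenum library.

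In the duodenum none of the 28 genes tested was called, beside 0.394% of all 14703 genes. Of the 28, 3 had an unadjusted p under 0.05 (Tmprss15, Slc1a5 and Slc6a6), beside 1280 of all 14703 genes. DESeq2 called Tmprss15 and Slc1a5, beside 1.61% of all genes. The median log2 fold change of the 28, mutant over control, was 0.04. Slc6a14 had too few counts to be tested. Slc1a5 had 30.8, 44.8, 30.6 and 40.2 CPM in mutant duodenum against 23.0, 21.5, 21.8 and 28.9 CPM in control duodenum (log2 fold change 0.61, SE 0.15, adjusted p = 0.15, DESeq2 adjusted p = 0.0421). It was also the 1 call without the filter on low counts and in the fit over all 16 libraries, beside 0.578% and 0.951% of all genes. It was the only gene of the set whose duodenal groups did not overlap, beside 5.75% of all genes. Tmprss15 had 413, 234, 215 and 122 CPM in mutant duodenum against 453, 979, 380 and 604 CPM in control duodenum, 40.7% of the control level (-1.30, SE 0.41, adjusted p = 0.317, DESeq2 adjusted p = 0.0232), with mutant NFVCT27 above control NF32. The 5 peptidases called in ileum had duodenal log2 fold changes of -0.39 (Anpep), -0.10 (Naaladl1), 0.03 (Mep1b), 0.26 (Enpep) and 0.27 (Xpnpep2).

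Duodenal libraries scattered widely for these genes. The median coefficient of variation over the members with a mean of at least 10 CPM was 36.2% in mutant duodenum and 21.5% in control duodenum, against 14.1% and 11.7% for other genes. In ileum it was 13.8% in mutants and 15.3% in controls, against 11.6% and 12.0%. Mutant NFVCT190 held the lowest duodenal value of its group for 17 of 28 genes, control NF152 for 19, and control NF29 the highest for 19. NFVCT190 also had the highest acinar share, 18.24%, while NF152 had the lowest of the controls, 6.399%. The summed share of 10 enterocyte genes was 0.7894% in NFVCT190 and 1.65% to 2.103% in the other mutants. Among controls it was 2.229% in NF152 and highest in NF29, at 3.275%. The part of these shares in the scatter was not tested. With NFVCT190 and NF17, the libraries richest in acinar genes in their groups, left out, none of the genes was called, beside 0.208% of all genes. With a scatter of this size the 95% intervals in duodenum included the ileal value for Anpep (-1.10 to 0.32) and Naaladl1 (-1.23 to 1.04). Those of Enpep (-0.24 to 0.77) and Xpnpep2 (-0.28 to 0.82) lay above their ileal values of -0.55 and -0.54. For Mep1b the interval, -0.586 to 0.654, only narrowly left out the ileal -0.591.

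The difference of the genotype effects, ileum minus duodenum, was called for none of the 29 genes, beside 0.0441% of all 15882 genes in edgeR. DESeq2 called 0 of them, beside 0.166% of all genes. An unadjusted p under 0.05 was reached by 2 of the 29, beside 700 of all 15882 genes. Those 2 were Enpep (-0.80, SE 0.28, unadjusted p = 0.00976, adjusted p = 0.801) and Xpnpep2 (-0.80, SE 0.28, unadjusted p = 0.0106, adjusted p = 0.812). For Anpep, Mep1b and Naaladl1 the differences were -0.40 (SE 0.38), -0.61 (SE 0.32) and -0.52 (SE 0.48). The lower peptidase values are therefore called in ileum but not shown to be particular to it.

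Lists of related genes set the members in context. Over all genes tested, 3.28% were called in ileum, 1.51% lower, and 0.394% were called in duodenum. An unadjusted p under 0.05 was reached by 2356 of all 14951 genes in ileum and 1280 of all 14703 in duodenum. Of 32 other peptidases tested in ileum, 2 were lower in mutants (Cndp1, a carnosine dipeptidase, log2 fold change -1.03, and Lap3, cytosolic leucine aminopeptidase, -0.54) and 1 higher (Cpd, a carboxypeptidase of the secretory pathway, 0.52), with a list median of -0.03. The summed share of that list was also lower in mutant ileum, at 0.436% to 0.479% of counts against 0.486% to 0.578% in control ileum (exact permutation p = 0.0286). Summed as CPM, with the TMM factors, the 2 groups overlapped. The mean log2(CPM + 1) of the list overlapped too, at 5.20 ± 0.0282 in mutant ileum and 5.25 ± 0.0579 in control ileum (exact permutation p = 0.2). Of 28 other amino acid and peptide carriers, 4 were lower in mutant ileum (Slc25a15, the mitochondrial ornithine carrier, -0.64, Slc1a3, a glutamate carrier, -1.06, Slc6a20b, -2.10, and Slc6a18, a neutral amino acid carrier, -1.55) and 1 higher (Slc36a2, a proton-driven carrier of small amino acids, 1.86). Slc6a20b is a close paralog of Slc6a20a, and how reads were split between them is not known. In duodenum 1 of 30 other carriers was called, Slc38a11 (-3.49), and 0 of 31 other peptidases (4 at an unadjusted p under 0.05, 0 by DESeq2).

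Genes of microvillus structure did not pass the edgeR test in ileum: 0 of 16 were called (4 at an unadjusted p under 0.05, 2 by DESeq2), with a median log2 fold change of -0.01. Among 16 transcription factors of enterocytes 1 was higher in mutant ileum, Creb3l3 (0.82, adjusted p = 0.0362), a regulator of lipid genes. Of 21 targets of the amino acid response, 2 were higher in mutant ileum (Ddit4, an inhibitor of mTOR signalling, 0.99, and Eif4ebp1, a repressor of translation, 0.90) and 1 lower (Cth, of cysteine synthesis, -0.73). In that list 18 of 21 values lay above 0, with a median of 0.49. An unadjusted p under 0.05 was reached by 13 of the 21, beside 2356 of all 14951 genes. DESeq2 called 6, beside 5.03% of all genes. The mean log2(CPM + 1) of the list was 4.13 ± 0.239 in mutant ileum and 3.74 ± 0.0829 in control ileum, with overlap (exact permutation p = 0.0571). In duodenum 0 of the 21 were called (1 at an unadjusted p under 0.05, 1 by DESeq2), with a median of 0.13.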

How the data were processed

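The table the authors deposited gives, per the file headers, whole-number read counts for Ensembl genes, not normalized. Per the labels' protocols, libraries were stranded total RNA after removal of ribosomal RNA, amplified by PCR, with no molecular identifiers mentioned. Of the tools in the submitters' processing notes, STAR 2.5.3a, HTSeq 0.6.1p1 and the build mm39 bear on the counts; whether counting used strand, and which annotation, is not given in the sources used here. Exons of Slc1a1, Slc3a1, Slc6a20a and Slc7a7 share bases with a protein-coding gene on the opposite strand, and those of Ace, Dpp4, Slc6a20a and Slc6a6 with an uncharacterised transcript there (GENCODE vM21), so their values could hold its reads.

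Symbols were matched by identifier (52083 matched, 3276 did not). Each comparison was fitted on its own libraries (the difference of effects on all 16) with edgeR 4.0.16 in R 4.3.3. It used TMM factors, edgeR's own filter against low counts, the robust quasi-likelihood F test and Benjamini-Hochberg adjustment over all genes tested, with calls at an adjusted p under 0.05. Every adjusted p comes from it unless DESeq2 1.42.0 is named. SE is the log2 fold change over the square root of F. CPM per kilobase uses union exon lengths of GENCODE vM21. The steps were also run on simulated counts, drawn with the same spread for every gene and with independent libraries. Such counts lack the wide scatter of the members in mutant duodenum and the link between libraries of 1 animal. The exact binomial interval of Slc6a14 and its floor of 3 counts cover counting error only.

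The 30 members and the other lists were chosen with earlier results of these data known. All members are named, and of each other list the called genes of smallest p, at most 5. Some genes of the other lists enter the counts and sums of their lists and are not reported here singly. Libraries of 1 animal deviated together (correlation of deviations from group means 0.117 to 0.378; for NFVCT190 another animal correlated higher, 0.253 against 0.162), and the labels give the pairs. Replicates of every group differed by more than sampling noise. Alternatives were RLE scaling, no filter on low counts, DESeq2, acinar genes left out, an acinar or smooth muscle covariate, 1 fit over all libraries, scaling to epithelial genes, the animal block and each library left out.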

Additional observations from a re-analysis of the deposited data

Results flagged for a closer look

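In 9 of 114 sets of 4 libraries, 1 library stood apart from the other 3 by a gap, relative to the whole range, above Dixon's 95% limit, which chance gives in about 1 of 20. Mutant NFVCT38 had the lowest Anpep value of mutant duodenum (1135 CPM), and mutant NFVCT153 the highest Slc36a1 value there (75.5 CPM). In mutant ileum, Dpp4 was lowest in NFVCT27 (834 CPM), Slc6a19 was lowest in NFVCT153 (502 CPM) and Slc38a2 was highest in NFVCT38 (159 CPM). Control NF29 was highest in control duodenum for Dpep1 (316 CPM) and Slc6a19 (953 CPM) and lowest in control ileum for Slc16a10 (65.7 CPM). Control NF152 was lowest in control duodenum for Slc7a8 (78.9 CPM). None of the 5 peptidases called in ileum had such a library in either ileal group.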

How the results depend on the processing

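No direction of a called gene of the set reversed under any alternative. In ileum, genotype calls among the 29 genes numbered 5 with edgeR, 9 without the filter on low counts, 8 with DESeq2, 2 scaled to epithelial genes, 0 in 1 fit over 16 libraries and 0 with the smooth muscle score as covariate. Leaving out single libraries gave 2 (without mutant NFVCT38) to 8 (without control NF29); it was 3 without control NF17, control NF32 or mutant NFVCT27. Over all genes, the 490 calls became 1096 without the filter, 878 with DESeq2, 318 scaled to epithelial genes, 21 with the covariate and 272 to 472 without single libraries. In duodenum, calls of the set were 0 with edgeR, 1 without the filter, 2 with DESeq2 and 1 in the fit over 16 libraries. Over all genes the 58 calls became 169, 297 and 151 in these, 172 scaled to epithelial genes (14 higher and 158 lower, against 14 and 44, with the median of all genes at -0.23 log2), 31 without the libraries of highest acinar share (an alternative chosen after seeing the data) and 27 to 61 without single libraries. For the difference of genotype effects, the 7 calls became 15 without the filter, 39 with DESeq2, 16 with the replicate block and 3 to 13 without single libraries, and 0 of the set in each. The replicate block gave 17 calls of the set for tissue in mutants and 21 in controls, as against 17 and 22 without it. No paired analysis was possible within a tissue because no animal has both genotypes. The causes of these shifts were not tested. With 4 animals a group, exact tests cannot go below p = 0.0286.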
